A study of Bos taurus with 6 samples.

Results

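Imprinted genes are expressed mainly from the copy inherited from a given parent. A set of 9 such genes that lie outside the insulin-like growth factor genes was examined in bovine fetal fibroblasts (bEFs). The set was MEST, PEG3, PEG10, DLK1, CDKN1C, GRB10, PLAGL1, NNAT and SGCE. The genes were chosen by symbol, and all 9 were found among the 17663 genes of the expression table, which covers chromosomes 1 to 29. The cells were primary cultures from cattle fetuses at 50–60 days, grown from tissue without head, limbs, inner organs or bones. FT cells came from 3 fetuses carrying exogenous fat-1, a gene of Caenorhabditis elegans for a desaturase that converts n-6 into n-3 polyunsaturated fatty acids. WT cells came from 3 wild-type fetuses of Luxi cattle. The breed of the FT fetuses, the promoter of the transgene and the way it was introduced are not given in the sources used here, so the transgene and other differences between the fetuses cannot be told apart.

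At imprinted genes, DNA methylation that was laid down in the egg or the sperm marks a control region, and this mark decides which parental copy is read. The genes often stand in clusters that share such a region, so that neighbours can be expressed from the same or from opposite copies. Many of them act on growth of the fetus and placenta. The values analysed here add up both parental copies, and the copy from which the RNA came was not tested.

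Poly(A) RNA was sequenced from 1 library per fetus, named FT_1 to FT_3 and WT_1 to WT_3. Total counts were 63366834, 48167642 and 54204446 for FT_1, FT_2 and FT_3, and 69777641, 51310741 and 54271927 for WT_1, WT_2 and WT_3. Each gene had a count and an FPKM value, which is the number of fragments scaled by gene length and library total. FT_1 stood apart from the other FT libraries. The biological coefficient of variation, which measures how far genes spread beyond counting noise, was 8.23% between FT_2 and FT_3 but 56.9% between FT_1 and FT_2. It was 9.99–13.4% between WT libraries. FT_1 was at least 4-fold above both other FT libraries in 510 of 12247 genes with a mean FPKM no lower than 0.5 (4.16%), and at least 4-fold below both in 434 (3.54%). Fold changes of the imprinted genes tested are therefore given with and without FT_1.

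The cells carried the markers of fibroblasts in every library. The summed FPKM of 11 fibroblast markers was 8603, 20086 and 19381 in FT_1, FT_2 and FT_3, against 21669, 21226 and 21466 in WT_1, WT_2 and WT_3. Vimentin (VIM) had the highest mean of them over the 6 libraries. PDGFRA was called higher, and without FT_1 5 of the 11 were called higher and 2, VIM and S100A4, lower. These calls and those of the epithelial markers are to be set beside the shares of all genes. The shares were 20.1% higher and 18.9% lower (30.6% and 31.5% without FT_1). The sum of the fibroblast markers was lowest in FT_1, which also held the highest level of epithelial keratins. The summed FPKM of 7 epithelial markers was 313.66, 14.43 and 14.65 in FT_1, FT_2 and FT_3, and between 7.92 and 14.19 in WT cells. KRT5 led this list with an FPKM of 171.54 in FT_1, 2.57 in FT_2, 1.63 in FT_3 and 0 in all 3 WT libraries. The epithelial adhesion gene EPCAM had an FPKM of 0.57 in FT_1 and was at 0 in the other 5 libraries. Of the 5 epithelial markers that edgeR tested, CLDN4 was called higher, and without FT_1 KRT5, KRT8 and KRT18 were called higher as well. With a replicate block 4 were called higher. CDH1, at 10.03, 7.83 and 13.86 in WT_1, WT_2 and WT_3, made up most of the sum in WT cells.

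FT cells were compared with WT cells by edgeR's quasi-likelihood test on the counts, and a gene was called at a Benjamini-Hochberg adjusted p under 0.05 over all genes tested. Of the 9 imprinted genes, 7 passed the filter on low counts, and DLK1 and PEG3 did not. GRB10 and PLAGL1 were higher in FT cells, PEG10 was lower, and MEST, CDKN1C, NNAT and SGCE were not called. Of all 13482 genes tested, 20.1% were called higher and 18.9% lower in FT cells. Without FT_1, CDKN1C, GRB10, PLAGL1 and SGCE were called higher and MEST, PEG10 and NNAT lower, where 30.6% of 13765 genes were called higher and 31.5% lower. The calls among the 7 genes are to be read against these shares.

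**Figure D1:**
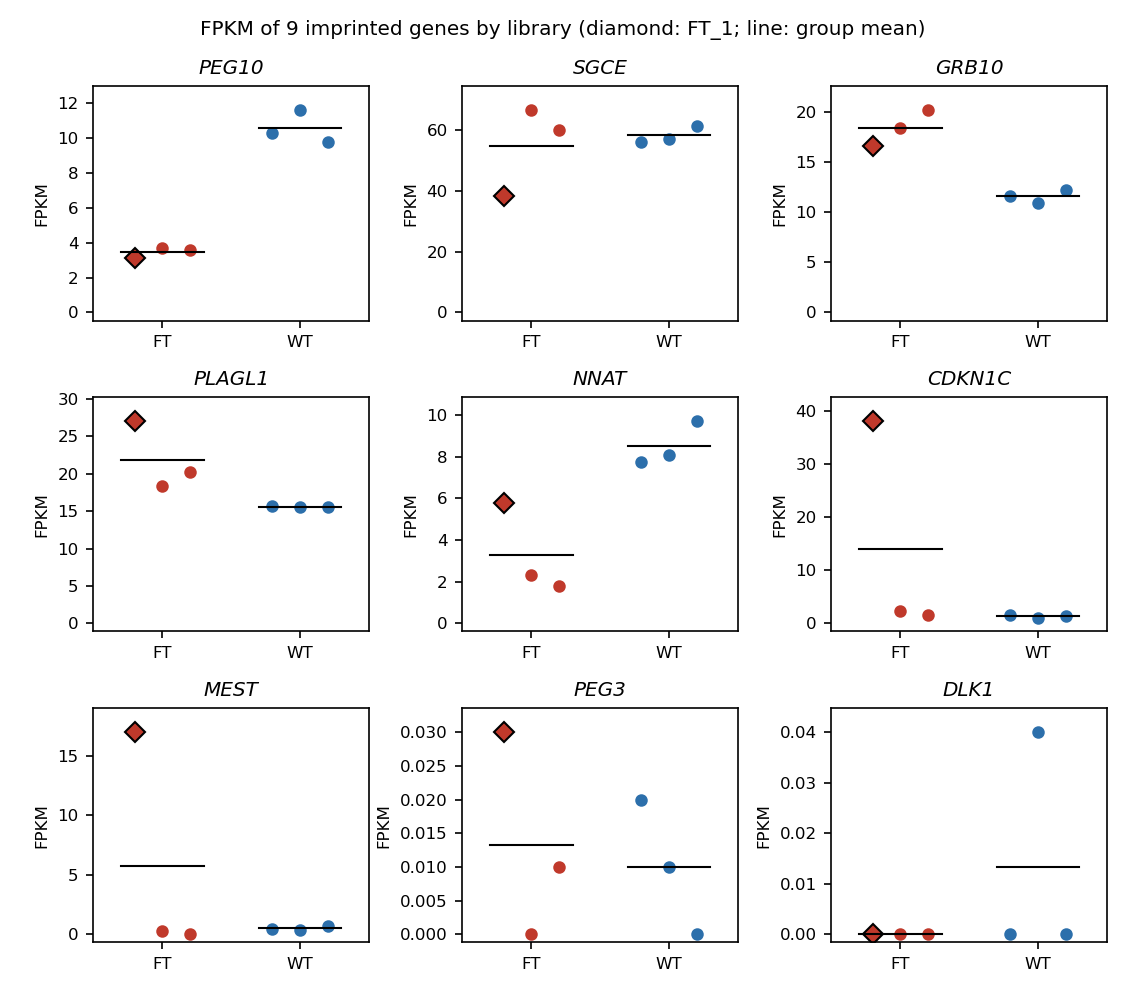
FPKM of the 9 imprinted genes on a linear axis from 0, with 1 point per library, the diamond for FT_1 and a line at the group mean. PEG10 and NNAT were lower and GRB10, PLAGL1 and CDKN1C higher in each FT library than in each WT library, while FT_1 alone was high for MEST and far above the rest for CDKN1C.

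The FPKM values told the groups apart in 5 of 7 genes. CDKN1C, GRB10 and PLAGL1 were above and PEG10 and NNAT below WT cells in each FT library, and MEST and SGCE overlapped. FT values lay above all WT values in 22.5% of the 12247 genes and below them in 37.9%. With limma on log2(FPKM + 1), GRB10 and PLAGL1 were called higher and PEG10 and NNAT lower, beside 15% of all genes called higher and 29.2% called lower. The median log2 fold change of all genes was 0.03 in edgeR and -0.12 for the unscaled FPKM values. Of the 7 genes, SGCE alone took the opposite sign on the FPKM scale. With 3 libraries a group, the smallest p of an exact two-sided permutation test is 0.10. Each of the 5 genes without overlap reached it, as values or ratios without overlap always do, so this p adds nothing to the lack of overlap.

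PEG10 encodes a protein derived from a retrotransposon that is needed for placental development and is read from the paternal copy in mouse and human. It lies on chromosome 4 from 12063954 to 12076656 on the plus strand in the authors' table (ENSBTAG00000053735), whose build is not given in the sources used here. Its FPKM was 3.13, 3.72 and 3.57 in FT_1, FT_2 and FT_3, against 10.28, 11.58 and 9.80 in WT_1, WT_2 and WT_3. All 3 FT libraries were low and close to each other, and FT_1 did not stand out. FT cells averaged 3.47 ± 0.307 (SD, n = 3) and WT cells 10.6 ± 0.921, so that the mean was 3.04-fold lower in FT cells. In edgeR, whose TMM factors rescale the libraries and so shift folds from those of FPKM, the change was -1.44 on the log2 scale (standard error, SE, 0.11, edgeR adjusted p = 8.4e-04), and -1.36 without FT_1 (adjusted p = 1.3e-06). At least as large a change was found in 14.0% of all genes tested.

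SGCE encodes epsilon-sarcoglycan, a membrane protein related to those that tie muscle fibres to their matrix. It lies beside PEG10 on the minus strand (chromosome 4, 11992415 to 12063687, ENSBTAG00000021282), with 266 bases between the starts of the pair. In mouse and human both are read from the paternal copy. The FPKM of SGCE was 38.22, 66.30 and 59.75 in FT_1, FT_2 and FT_3, and 56.06, 57.09 and 61.24 in WT_1, WT_2 and WT_3. FT_1 was the lowest of the 6 libraries and FT_2 the highest. The log2 fold change of 0.08 was not called (SE 0.21, 95% interval -0.45 to 0.60, edgeR adjusted p = 0.802), and it was -0.12 on the FPKM scale. Without FT_1 it was 0.29 and was called (edgeR adjusted p = 0.00622), and without FT_2 it was -0.09 and was not.

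The FPKM of PEG10 as a percentage of that of SGCE does not depend on how libraries are scaled. It was 8.19%, 5.61% and 5.97% in FT_1, FT_2 and FT_3, against 18.3%, 20.3% and 16.0% in WT_1, WT_2 and WT_3. The ratio was lower in all 3 FT libraries, with a mean log2 ratio of -3.94 ± 0.293 (SD, n = 3) for FT cells against -2.46 ± 0.172 for WT cells and thus a difference of -1.48. The exact permutation test gave p = 0.10, the smallest it can give, and 0.15 after adjustment over the 3 ratios compared. The group difference in this ratio was larger than the spread between libraries of either group.

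**Figure D2:**
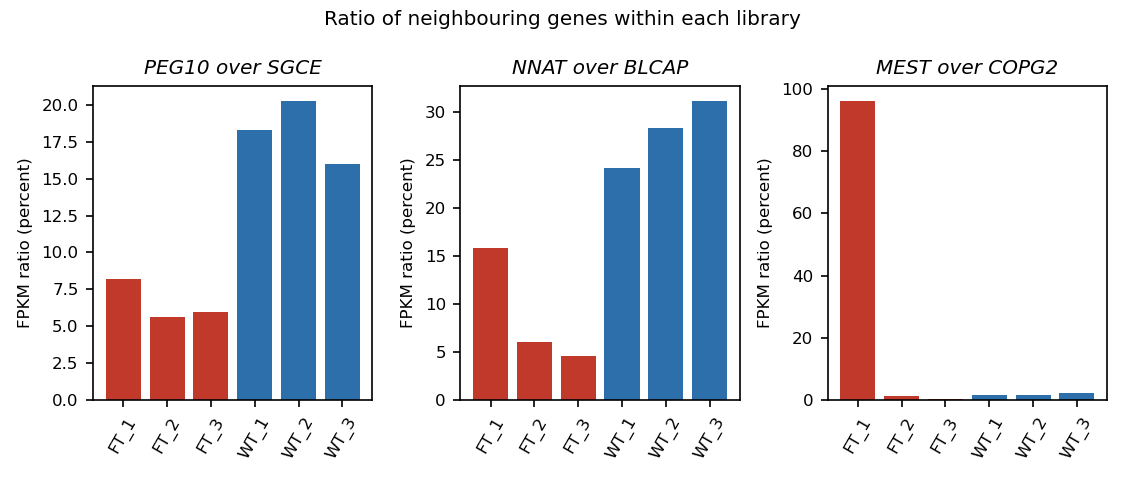
FPKM of PEG10, NNAT and MEST as a percentage of the FPKM of the neighbouring gene in the same library, with 1 bar per library (red FT, blue WT) and axes that start at 0. PEG10 over SGCE and NNAT over BLCAP were lower in all 3 FT libraries, and MEST over COPG2 was high in FT_1 only.

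GRB10 encodes an adaptor that binds the insulin and IGF1 receptors and restrains their signal, and in mouse it limits fetal growth. It lies on chromosome 4 from 5106065 to 5327013 on the plus strand (ENSBTAG00000017086). Its FPKM was 16.63, 18.37 and 20.13 in FT_1, FT_2 and FT_3, and 11.63, 10.87 and 12.23 in WT_1, WT_2 and WT_3. The lowest FT library was above the highest WT library, and the mean was 1.59-fold higher in FT cells (18.4 ± 1.75 against 11.6 ± 0.682, SD, n = 3). In edgeR, on counts rescaled between libraries, the change was 0.83 on the log2 scale (SE 0.11, edgeR adjusted p = 0.00272), and 0.90 without FT_1 (adjusted p = 7.3e-06).

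PLAGL1 encodes a zinc finger transcription factor that slows cell growth and regulates other imprinted genes in mouse. It lies on chromosome 9 from 81363245 to 81407582 on the minus strand (ENSBTAG00000026523). Its FPKM was 27.00, 18.34 and 20.30 in FT_1, FT_2 and FT_3, against 15.65, 15.55 and 15.57 in WT_1, WT_2 and WT_3. The WT libraries were nearly equal, the FT libraries all higher, and FT_1 was the highest. The log2 fold change was 0.65 (SE 0.14, edgeR adjusted p = 0.0156), and 0.48 without FT_1 (adjusted p = 3.2e-04). The call was lost when WT_1, WT_2 or WT_3 was left out, with an edgeR adjusted p of 0.0603 to 0.0654. A change at least as large was found in 41.6% of all genes tested.

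NNAT encodes neuronatin, a small membrane protein that was named for its expression in the developing brain. It lies on chromosome 13 from 66465154 to 66467543 on the plus strand (ENSBTAG00000003212), inside the gene BLCAP on the opposite strand. The sources used here do not say whether counting used strand, so reads of NNAT and BLCAP cannot be told apart with certainty. The FPKM of NNAT was 5.78, 2.33 and 1.78 in FT_1, FT_2 and FT_3, against 7.73, 8.08 and 9.70 in WT_1, WT_2 and WT_3. All FT libraries were below all WT libraries, and FT_1 lay nearest to the WT values. The log2 fold change of -1.21 was not called in edgeR (SE 0.45, adjusted p = 0.0768), whereas limma on the FPKM values gave -1.25 and called it (adjusted p = 0.0264). Without FT_1 the log2 fold change was -1.88 and was called by edgeR (adjusted p = 1.2e-05).

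BLCAP itself, a gene first described in bladder cancer, was higher in FT cells, with a log2 fold change of 0.47 (SE 0.08, edgeR adjusted p = 0.00687). As a percentage of the FPKM of BLCAP, that of NNAT was 15.8%, 6.07% and 4.56% in FT_1, FT_2 and FT_3, against 24.2%, 28.4% and 31.2% in WT_1, WT_2 and WT_3. The ratio was lower in each FT library, with a difference of -1.87 on the log2 scale (exact permutation p = 0.10, the smallest possible, and 0.15 after adjustment).

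CDKN1C and MEST were set apart by FT_1. CDKN1C encodes p57, an inhibitor of cyclin-dependent kinases that is read from the maternal copy in mouse and human and limits fetal growth. It lies on chromosome 29 from 48728420 to 48730918 on the plus strand (ENSBTAG00000031184). Its FPKM was 38.08, 2.37 and 1.53 in FT_1, FT_2 and FT_3, against 1.52, 1.11 and 1.37 in WT_1, WT_2 and WT_3. FT_1 was 16.1-fold above the higher of the other FT libraries, while FT_3 lay beside WT_1. The log2 fold change of 3.52 was not called with all 6 libraries (SE 1.29, edgeR adjusted p = 0.0766). Without FT_1 it was 0.71 and was called (adjusted p = 0.0304). Without FT_3 it was 4.04 and was also called (edgeR adjusted p = 0.0456), and over the libraries left out in turn the adjusted p ran from 0.0304 to 0.209. FT_3 at 1.53 and WT_1 at 1.52 kept the groups apart by a narrow margin.

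MEST encodes a protein of the alpha/beta hydrolase family, is read from the paternal copy in mouse and human and is abundant in embryonic mesoderm. It lies on chromosome 4 from 94250156 to 94263796 on the plus strand (ENSBTAG00000017223). Its FPKM was 16.96, 0.25 and 0.06 in FT_1, FT_2 and FT_3, and 0.42, 0.40 and 0.67 in WT_1, WT_2 and WT_3. FT_1 was thus 67.8-fold above the higher of the other FT libraries, which lay below the WT libraries. In counts, MEST had 3040 in FT_1, 34 in FT_2 (exact 95% Poisson interval 23.5 to 47.5) and 11 in FT_3 (5.49 to 19.7), against 83, 59 and 102 in WT_1, WT_2 and WT_3. The interval covers counting error only. The log2 fold change was 3.66 with all 6 libraries and was not called (SE 1.89, edgeR adjusted p = 0.173). Without FT_1 it was -1.48 and was called (adjusted p = 0.039), so the direction was set by that library.

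FT_1 was at least 10-fold above both other FT libraries in 286 of 12247 genes (2.34%), among them CDKN1C and MEST. The FPKM of KRT8, at 84.14, 0.95 and 0.61 in FT_1, FT_2 and FT_3 and 0 in WT cells, was high in FT_1 like that of KRT5, and the part of other cell types in the CDKN1C and MEST values was not tested. In such bulk libraries, fewer cells of a type and less RNA per cell cannot be told apart. The values without FT_1 rest on FT_2 and FT_3 alone, in which KRT5 was 2.57 and 1.63. As a percentage of the FPKM of its neighbour COPG2, that of MEST was 96.3%, 1.26% and 0.311% in FT_1, FT_2 and FT_3, against 1.5%, 1.46% and 2.31% in WT_1, WT_2 and WT_3. COPG2, which encodes a coat protein of transport vesicles, ends 211 bases from the end of MEST on the opposite strand. It was lower in FT cells, with a log2 fold change of -0.41 (SE 0.08, edgeR adjusted p = 0.0113, and 0.0509 without WT_1). The ratio of MEST to COPG2 differed by 1.03 on the log2 scale between groups, with values that overlapped (exact permutation p = 1). Without FT_1 the difference was -1.35, and FT_2 and FT_3 were below all 3 WT libraries.

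**Figure D3:**
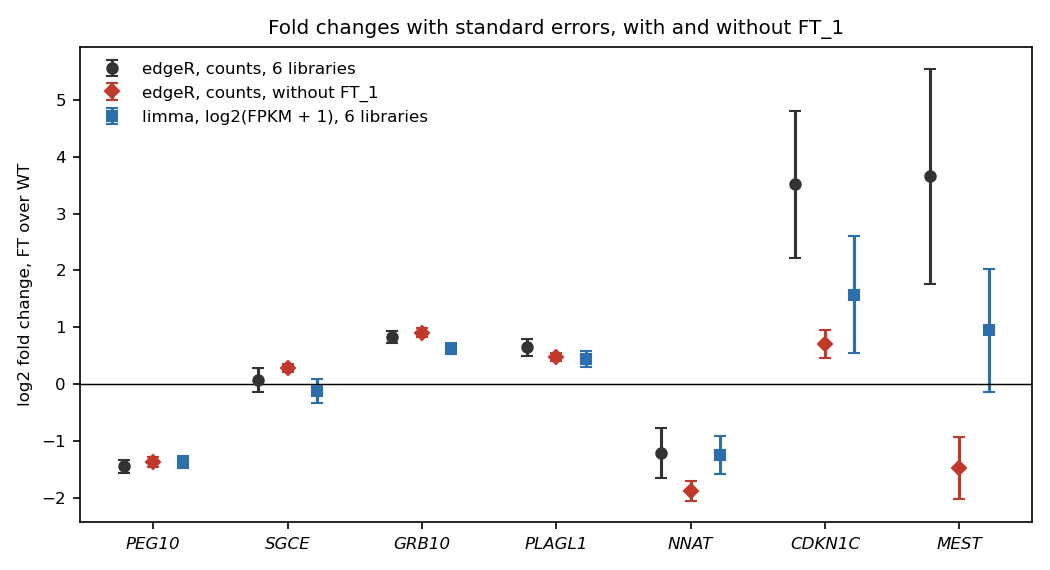
Log2 fold change of FT over WT cells (points) with its standard error (bars) for 7 imprinted genes, in edgeR with 6 libraries (black), in edgeR without FT_1 (red) and in limma on log2(FPKM + 1) (blue). PEG10, GRB10 and PLAGL1 kept their sign in each, SGCE changed sign around 0, and MEST went from 3.66 to -1.48 without FT_1.

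DLK1 and PEG3 were at or near 0 in these cells. DLK1 encodes a membrane protein with growth factor repeats that holds back adipocyte formation (chromosome 21, 65626343 to 65634828, plus strand, ENSBTAG00000037899). Its count was 4 in WT_2 and 0 in the other 5 libraries. A count of 0 allows up to 3 counts by a one-sided 95% Poisson bound, which is 0.0473 CPM (the count scaled to the library total) in FT_1 and 0.0623 CPM in FT_2, the deepest and the shallowest FT library. PEG3, a zinc finger gene that is read from the paternal copy (chromosome 18, 64099930 to 64118980, minus strand, ENSBTAG00000054572), had counts of 23, 0 and 4 in FT_1, FT_2 and FT_3, and 14, 8 and 0 in WT_1, WT_2 and WT_3. Neither group held DLK1 or PEG3 at an FPKM above 0.04, and a difference was not detectable at this depth.

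The order of the levels was led by SGCE in both groups, whose mean FPKM was 54.8 ± 14.7 (FT) and 58.1 ± 2.74 (WT). PLAGL1 and GRB10 followed in both groups, with ranges that overlapped in FT cells. PEG10 came next in WT cells, and its range of 9.80 to 11.58 overlapped that of GRB10. In FT cells CDKN1C and MEST came next in the mean, but their ranges, 1.53 to 38.08 and 0.06 to 16.96, overlapped those of PEG10 and NNAT, and that of CDKN1C also held those of PLAGL1 and GRB10, while that of MEST reached the range of GRB10. Their place rested on FT_1, since without it CDKN1C averaged 1.95 and MEST 0.155, below PEG10 at 3.65.

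Genes whose pattern over the 6 libraries was most like each imprinted gene were found by the root mean square difference of centred log2(FPKM + 1). For PEG10 they were PSMA1, a proteasome subunit gene, and HNRNPM, an RNA binding protein gene (0.0237 and 0.0240). For GRB10 they were DAB2IP and AKT1S1 (0.0238 and 0.0355). For MEST they were PLCH2 and the collagenase gene MMP13 (0.133 and 0.134), and for CDKN1C they were P3H2 and SFN (0.161 and 0.161), all of which were high in FT_1. MMP13 had an FPKM of 14.10, 0 and 0 in FT_1, FT_2 and FT_3, and SFN had 22.18, 0.79 and 0.40. The nearest to NNAT were TMEM14A and the cyclin gene CCND1 (0.107 and 0.108), to PLAGL1 RNF31 and DELE1 (0.0357 and 0.0363), and to SGCE SYNE1 and WDR60 (0.0477 and 0.0481).

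Beyond the 9 genes, 63 other genes were listed as imprinted, of which 45 were in the table and 37 were tested. Whether each of these is imprinted in cattle fibroblasts was not examined. In FT cells 10 were called higher and 7 lower, and 20 were not called, to be set beside 20.1% and 18.9% of all genes (30.6% and 31.5% without FT_1). The median log2 fold change was -0.0023, against 0.03 for all genes. ANO1, OSBPL5 and BLCAP had the smallest p among those that rose, and NDN, NAP1L5 and DIRAS3 among those that fell. Without FT_1, 14 were called higher and 15 lower, and the 17 genes called with all libraries kept call and direction. With limma on the FPKM values, 6 of 32 were called higher and 12 lower (15% and 29.2% of all genes), and without WT_1, WT_2 or WT_3 edgeR called 4, 4 and 6 higher. FT_1 was at least 4-fold above both other FT libraries in ANO1, DIRAS3, GPR1 and SMOC1, and at least 4-fold below both in COBL, DDC, PON3, QPCT and TSPAN32.

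The channel gene ANO1 had an FPKM of 14.06, 2.58 and 2.41 in FT_1, FT_2 and FT_3, against 0.04, 0.08 and 0.04 in WT_1, WT_2 and WT_3. It was high in all FT libraries and highest in FT_1, with a log2 fold change of 7.01 (SE 0.99, edgeR adjusted p = 0.00351) and 5.71 without FT_1. DIRAS3, a small GTPase gene that slows growth, had 0.97, 0.24 and 0.17 in FT_1, FT_2 and FT_3, against 11.25, 13.93 and 13.15. Its log2 fold change was -4.62 (SE 0.70, edgeR adjusted p = 0.00437), and -5.78 without FT_1. NDN, a gene of the region that is lost in Prader-Willi syndrome, had 0.73, 0.94 and 0.80 in FT_1, FT_2 and FT_3, and 4.17, 3.90 and 3.65 in WT_1, WT_2 and WT_3. It was low in each FT library, at -2.08 on the log2 scale (SE 0.20, edgeR adjusted p = 0.0013). Of the insulin-like growth factor genes, IGF2 and its clearance receptor gene IGF2R were both higher in FT cells. IGF2 had a log2 fold change of 3.58 (SE 0.73, edgeR adjusted p = 0.0119, and 0.0511 without WT_1) and IGF2R of 0.68 (SE 0.13, adjusted p = 0.0104). That of IGF2 ran from 3.19 to 4.73 with a library left out.

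**Figure D4:**
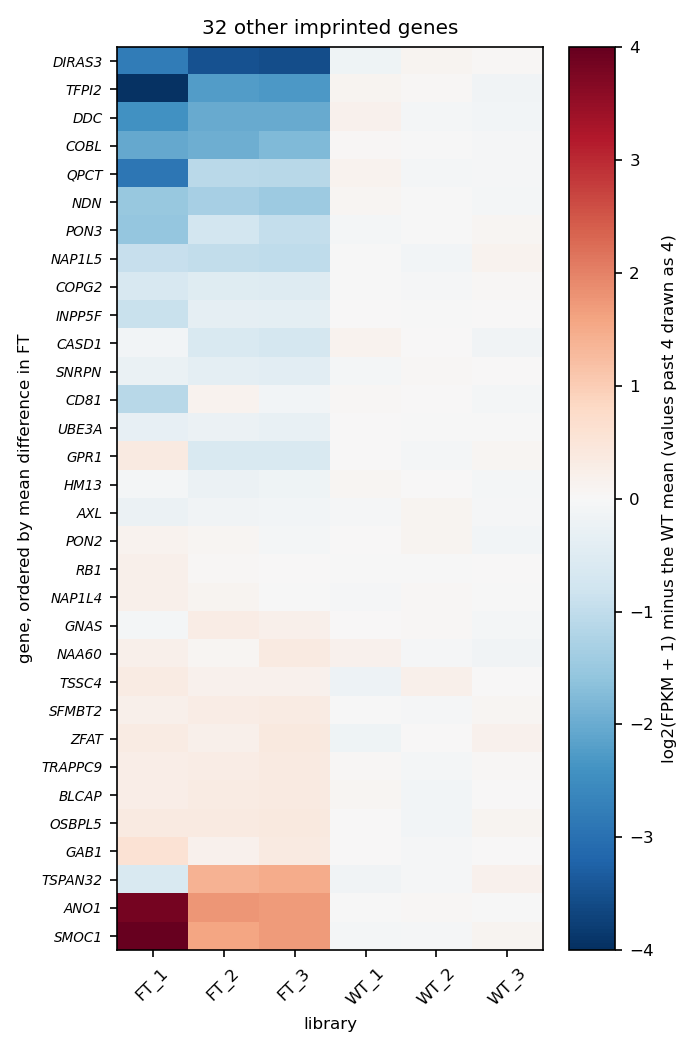
Log2(FPKM + 1) of 32 other imprinted genes in each library after the WT mean of the gene was subtracted, with red for higher and blue for lower. Genes are ordered by their mean difference in FT cells, DIRAS3 is at the low end and SMOC1 at the high end, and FT_1 differs most from FT_2 and FT_3 in SMOC1, ANO1, TSPAN32, QPCT and TFPI2.

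Genes whose start lay within 500 kb of the start of each imprinted gene were compared in the same fit. The counts called are to be set beside the shares of all genes. These were 20.1% higher and 18.9% lower (30.6% and 31.5% without FT_1, 15% and 29.2% in limma). Near PEG10, 4 genes were tested (SGCE, COL1A2, CASD1 and PPP1R9A), and 0 were called by edgeR, DESeq2 or limma (3 tested, without PPP1R9A) or had an unadjusted p under 0.05 in edgeR. Without FT_1, SGCE and CASD1 were called in opposite directions, with log2 fold changes of 0.29 and -0.72. In a wider list of neighbours of PEG10 and SGCE, 9 were tested, of which 0 were called higher and 2, TFPI2 and BET1, lower like PEG10. Both start beyond 500 kb and kept their calls with each library left out. Their log2 fold changes then ran from -2.79 to -2.13 for TFPI2 and from -0.78 to -0.64 for BET1. Near GRB10 both tested genes fell while GRB10 rose. COBL, which starts just outside that distance, also fell, with a log2 fold change of -4.69 (-5.86 to -4.16 with a library left out). DDC, the aromatic amino acid decarboxylase gene that starts 9422 bases after the end of GRB10 on the same strand, had a log2 fold change of -4.05 (SE 0.87, edgeR adjusted p = 0.0142, and up to 0.0544 without WT_1 or WT_2), and FIGNL1 of -1.58 (SE 0.24, adjusted p = 0.00463). DDC had an FPKM of 0.02, 0.35 and 0.35 in FT_1, FT_2 and FT_3, against 5.22, 4.20 and 4.04 in WT_1, WT_2 and WT_3. Near CDKN1C, 3 of 10 genes were called, and DHCR7, OSBPL5 and NAP1L4 were all higher. NAP1L4 lost its call when any library other than FT_1 was left out (edgeR adjusted p up to 0.153), and without FT_1 5 genes were called higher and 2 lower. Near MEST, ZC3HC1 and COPG2 were called lower of 7, near PLAGL1 SF3B5 and PEX3 lower of 8 (SF3B5 only with FT_2, FT_3 and all WT libraries present, edgeR adjusted p up to 0.0944 otherwise), and near NNAT 2 higher (MANBAL and BLCAP) and 3 lower of 11. Of 5 genes near DLK1, 0 were called by edgeR, DESeq2 or limma (4 tested, without BEGAIN) or had an unadjusted p under 0.05 in edgeR, though without FT_1 SLC25A29 was called higher, and of 17 near PEG3, 3 were higher and 3 lower, which became 4 and 4 without FT_1 and 1 and 1 with another library left out.

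**Figure D5:**
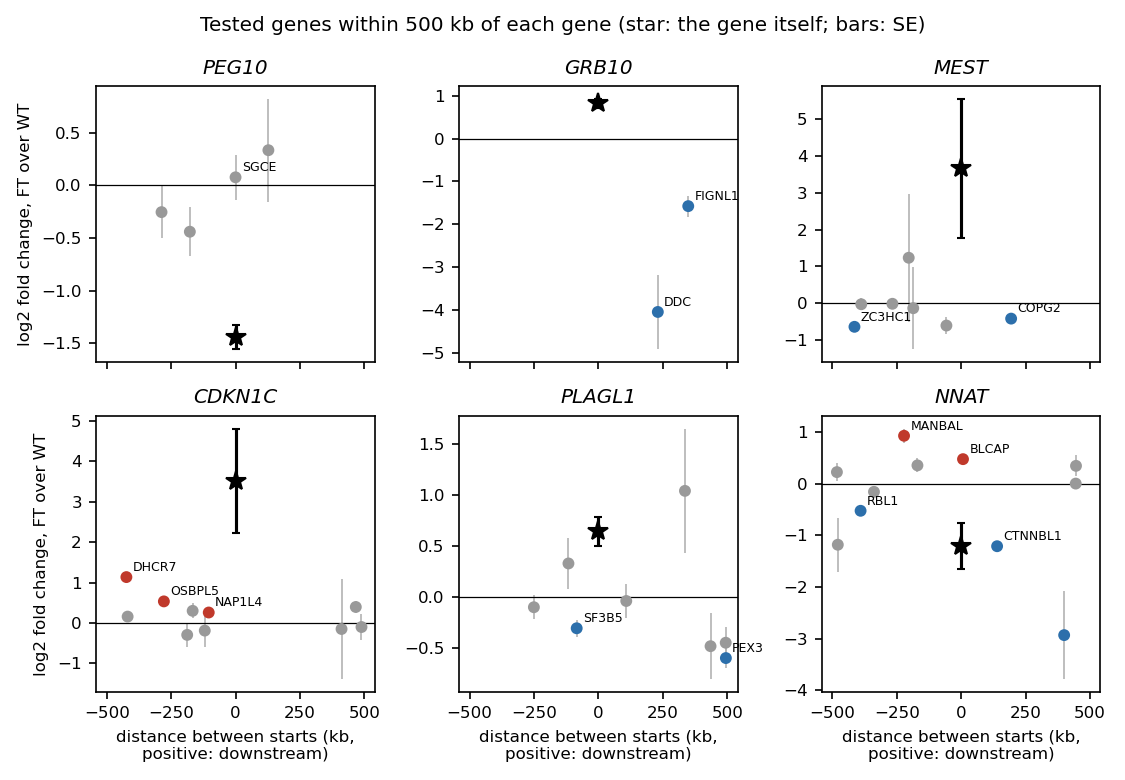
Log2 fold change of FT over WT cells (points, standard error as bars) of tested genes against the distance between their start and that of each of 6 imprinted genes, in the direction of transcription, with a star for the imprinted gene. Red points were called higher and blue lower by edgeR, gray were not called. DDC and FIGNL1 lie below 0 where GRB10 lies above it, and PEG10 lies below the tested genes within 500 kb of it.

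Genes that work with the imprinted genes were examined by fixed lists, whose counts are to be set beside the shares of all genes called higher and lower (20.1% and 18.9% with 6 libraries, 30.6% and 31.5% without FT_1, 15% and 29.2% in limma). Of 17 cell cycle genes around CDKN1C (inhibitors, G1 cyclins and kinases), 4 were called higher and 5 lower, with the smallest p in RBL2, CCND3 and CDK6 and in RBL1, CDK4 and CDKN2B. The median log2 fold change was -0.27, and limma called 1 higher and 7 lower. Without FT_1, 5 were called higher and 8 lower, and with another library left out 1 or 2 and 2 or 3. CDK6 and CDKN2B lost their calls when any library other than FT_1 was left out (edgeR adjusted p up to 0.129 and 0.103), and CCND3 without WT_1, WT_2 or WT_3 (up to 0.0919). Of 12 genes around GRB10, the adaptor family, the insulin and IGF receptors and their substrates, 5 were called higher and 1 lower, the median was 0.49, and limma called 3 higher and 1 lower of 10. Without FT_1, 7 were called higher and 2 lower, and with another library left out 2 or 3 were higher and 1 lower. GIGYF2 (0.56), INSR (0.58) and IRS1 (1.06) rose on the log2 scale, and MAP2K1 had a log2 fold change of -0.43. The call of IRS1 was lost without WT_2 or WT_3 (edgeR adjusted p up to 0.0634). Genes called among the partners of SGCE in the sarcoglycan and dystrophin complex included DAG1 and SNTB1, which were higher, and SGCB and DTNA, which were lower. DAG1 alone of these 4 kept its call with each library left out. RTL6 was called higher of 3 relatives of PEG10, and without FT_1 ARC was higher and PNMA1 lower as well. In limma RTL6 was higher and PNMA1 lower of 2. Of the 2 relatives of PLAGL1, PLAG1 and PLAGL2, 0 were called by edgeR, 1 by DESeq2, 0 by limma (which tested PLAGL2 only) and 1 had an unadjusted p under 0.05 in edgeR. PLAGL2 was called higher by edgeR without FT_1 or without FT_2. Of 12 genes around DLK1 and adipocyte fate, 3 were higher (NOTCH1, CEBPB, NOTCH2) and 2 lower (HES1, FABP4), with a median of -0.10. Without FT_1, 5 were lower. The call of NOTCH2 was lost without FT_2, FT_3, WT_1 or WT_2, that of FABP4 without FT_2, WT_1, WT_2 or WT_3, and that of CEBPB without WT_1 or WT_2 (edgeR adjusted p up to 0.0884, 0.0594 and 0.0526).

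Factors that act on DNA methylation and chromatin at imprints, those that remove methylation included, were measured as well. Of 21 tested, 7 were called higher and 2 lower, and the median log2 fold change was 0.28, while limma called 2 higher and 2 lower of 19. The number of these factors called higher was 9 without FT_1 and 2 to 4 with another library left out. Of all genes, 20.1% were called higher and 18.9% lower (30.6% and 31.5% without FT_1, 15% and 29.2% in limma). TET2 and TET3, which oxidise methylated cytosine, had log2 fold changes of 1.06 (edgeR adjusted p = 0.00224) and 1.42 (edgeR adjusted p = 0.0137, and up to 0.0622 without WT_1 or WT_2). EHMT2, a histone methyltransferase gene, had 0.40 (edgeR adjusted p = 0.00525). UHRF1, which brings the maintenance methyltransferase to replicated DNA, had -1.37 (edgeR adjusted p = 0.00341), and the remodeller gene HELLS had -0.39 (edgeR adjusted p = 0.0321, and up to 0.114 without FT_2, FT_3, WT_1 or WT_2). DNMT1, the maintenance methyltransferase gene itself, was not called, with a log2 fold change of -0.05 (SE 0.07, edgeR adjusted p = 0.592).

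Other markers moved with the groups. Their calls are to be set beside 20.1% of all genes called higher and 18.9% called lower. Of 6 smooth muscle markers, 5 were called, all higher, and their summed FPKM was 2493, 3764 and 3628 in FT_1, FT_2 and FT_3, against 1103, 1083 and 1208 in WT_1, WT_2 and WT_3, led by ACTA2. Of 6 proliferation markers, 5 were called, all lower, with the smallest p in CDK1, CCNB1 and PCNA. Without WT_2 or WT_3 these 3 alone were called, and MKI67 and TOP2A lost their calls (edgeR adjusted p up to 0.0566 and 0.0643). TOP2A also lost its call without WT_1. Their summed FPKM was 54.23, 86.14 and 86.13 in FT_1, FT_2 and FT_3, against 240.67, 288.71 and 233.25 in WT_1, WT_2 and WT_3. Of 4 mesothelial markers in the table, 2 were tested, of which MSLN was called higher and UPK3B was not called, and WT1 was at 0 in FT cells and at most 0.05 in WT cells. The FPKM of MSLN was 198.65, 44.93 and 46.18 in FT_1, FT_2 and FT_3, and 2.08 to 3.18 in WT cells. Of 5 adipocyte markers tested, 2 were lower (CIDEC and FABP4, the latter not without FT_2, WT_1, WT_2 or WT_3). The summed FPKM of 6 adipocyte markers was 4.98, 14.32 and 15.62 in FT_1, FT_2 and FT_3, against 154.05, 139.93 and 156.45 in WT_1, WT_2 and WT_3, led by FABP4. All 6 endothelial markers were under 1 FPKM in each library. Markers of blood and immune cells, skeletal muscle, cartilage and nerve, each list taken alone, summed to at most 14.95 FPKM in a library, and among them the muscle gene DES was called higher and MYH3 (muscle), CD68 (blood), ACAN (cartilage) and TUBB3 (nerve) lower. DES kept its call with each library left out, and the other 4 lost theirs without WT_1, WT_2 or WT_3 and without FT_2 or FT_3 (TUBB3 without each, MYH3 without FT_3, CD68 and ACAN without FT_2). The part of these differences in the values of the imprinted genes was not tested.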

How the data were processed

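RNA was measured in 6 bEF samples, 3 FT and 3 WT, grouped by labelled genotype. Paired-end reads were mapped with HISAT, and StringTie and edgeR gave the expression levels. The submitters' processing notes name Bowtie 0.12.2, HISAT2 2.0, StringTie 1.3.0 and mm8, a mouse build, and the build of the cattle coordinates is not given in the sources used here. FPKM values were deposited by the authors, which are scaled to gene length and library size. The raw count of each gene was deposited by the authors in the same table. Whether counting used strand, and how shared reads were counted, is not given in the sources used here. The sample records and the methods name different instruments and RNA amounts. Where a symbol stood on more than 1 line, the line with the most counts was used.

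Counts were tested with edgeR 4.0.16 in R 4.3.3 (TMM scaling, filterByExpr, quasi-likelihood test). limma 3.58.1 on log2(FPKM + 1), for a mean FPKM from 0.5 upwards, and DESeq2 1.42.0 were alternatives. Other alternatives were median-ratio factors, no filter, a pseudocount of 0.1, the threshold of the study's methods, a replicate block and each library left out. p-values were adjusted by the Benjamini-Hochberg method. Ratios within a library had 0.01 FPKM added to each value. Named genes were the 9 imprinted genes, their partners in ratios, IGF2 and IGF2R, the called genes of each list with the smallest p (up to 3 per direction), markers, and the 2 most alike genes. CASD1, SMOC1, GPR1, PON3, QPCT, TSPAN32, TFPI2, COBL, ARC and PNMA1, and the genes called near each imprinted gene, were named after their values were seen. The imprinted genes and the lists were chosen with earlier results of these data known. On simulated counts with 200 changed genes, edgeR recovered 200 among 13768 genes, and limma 196 among 12229. The simulation held no library that stood apart like FT_1, and its changed genes were well counted and had large folds. It therefore checked the code and does not measure the power for these data. MEG3 and H19 were not analysed here, and PHLDA2 was at 0 in 4 libraries, so they entered no ratio.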

Additional observations from a re-analysis of the deposited data

How the results depend on the processing

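Of 82 values of the 7 tested imprinted genes under the alternatives, 67 kept their direction and their side of the threshold, among them all 12 of PEG10 and all 12 of GRB10. DESeq2 gave no adjusted p for CDKN1C and MEST. When single libraries were left out, the log2 fold change ran from -1.48 (without FT_1) to 4.24 for MEST, from 0.71 to 4.04 for CDKN1C, from 0.48 to 0.75 for PLAGL1, from -1.88 to -0.92 for NNAT and from -0.086 to 0.29 for SGCE. NNAT was called with a log2 fold change of -1.21 in DESeq2, -1.25 in limma and -1.52 in limma with a pseudocount of 0.1 (adjusted p 0.0230 to 0.0295). SGCE had -0.12 in limma with either pseudocount. The difference in mean log2(FPKM + 1) ran from -0.374 to 1.67 for MEST and from -0.276 to 0.114 for SGCE with a library left out, and for SGCE it was 0.027 when FPKM was divided by the TMM factor. The log2 ratio of MEST to COPG2 ran from -1.35 to 2.68. Genes called higher ranged from 1516 (without WT_1) to 4215 (without FT_1), and genes called lower from 1531 to 4337, with 1378 and 1208 at the threshold of the methods. Of the other imprinted genes, limma called 6 higher and 12 lower, and with a pseudocount of 0.1 it called 6 and 11. Leaving out a library gave 4 to 14 higher and 5 to 15 lower. The labels name no pairing of the samples by replicate number. Deviations of libraries with the same number correlated at -0.001, -0.020 and 0.018 across genes. These values do not settle whether samples were paired, since FT_1 weighs on the deviation of each FT library. With a replicate block, 1838 genes were called higher and 1741 lower, 6 other imprinted genes were called higher, and the calls of the 7 imprinted genes stayed with GRB10, PLAGL1 and PEG10. The cause of these changes was not tested. Counts of 34 or fewer in FT_2 and FT_3 limit the precision for MEST, and DLK1 and PEG3 did not pass the filter and were not called without it.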
